A study of Mus musculus with 8 samples.

Results

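Immediate early genes are transcribed within minutes of a growth factor, cytokine or stress signal, from transcription factors that are already present in the cell. Many of their products are transcription factors themselves. Fos and Jun proteins pair through a leucine zipper to form AP-1, which binds the DNA motif TGACTCA in genes of proliferation, matrix breakdown and inflammation, and in the pancreas these genes are known to respond quickly to injury. Their RNAs are short-lived, so a tissue sample records the signals of a brief period before collection.

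The 10 genes described here, Fos, Fosb, Fosl1, Jun, Junb, Egr1, Atf3, Ier2, Ier3 and Klf6, were taken by symbol as a known group of early response genes. This group and the further lists were chosen with earlier results of these data known. Their counts beside shares of all genes are therefore description and no separate support for a difference. Of the 10 genes, 9 had a row among the 15047 gene symbols of the deposited table, and Fosl1 was not analysed here. Bulk RNA-Seq profiled the pancreas of 8 male mice. The lean group held 3 C57BL/6 WT mice on a low-fat diet (LFD), the diet-induced obesity group 3 C57BL/6 WT mice on a high-fat diet (HFD) in which fat supplied 60% of the calories, and the genetic obesity group 2 leptin-deficient C57BL/6J ob/ob mice on standard chow. Diets began at the age of 4 weeks and LFD and HFD lasted for 10 weeks, while the duration for ob/ob and the age at tissue collection are not given in the sources used here. According to the text of the study, all 3 groups carried an orthotopic transplant of mT organoids, which were grown from mouse pancreatic tumors. The labels do not mention the transplant and call the tissue pancreas, so transplanted and host cells were measured together. The ob/ob genotype and the chow cannot be told apart, and ob/ob has only 2 mice.

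The values are rlog values, log2 gene counts that the authors corrected for library size and shrank at low counts, so all differences below are log2 differences and understate those of genes with few reads. They ran from 0.466 to 24.3 with a median of 7.18. Depth is unknown, as rlog values do not keep it, so every error below is the spread among mice, which the labels number as separate animals. No pair of mice held identical values. The pancreas label was borne out by 26 of 26 acinar genes, which made up 60.9% to 63.1% of the summed linear values in LFD mice. In HFD this share was 60.0%, 40.6% and 21.3% in replicates 1 to 3, and in ob/ob it was 57.4% and 23.9% in replicates 1 and 2. HFD replicate 1 therefore stood with the LFD mice in acinar content, and the results below are given with and without it where it changes them.

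To compare the levels of different genes, the rlog value was lowered by the log2 of the length of the longest protein-coding transcript in kilobases. On this per-length scale Klf6, a zinc finger transcription factor, was the highest of the 9 genes in LFD, at 7.26, followed by Ier2 at 6.69 and Junb at 6.65. Ier3 was at 6.35, Jun at 6.07, Fos at 5.05 and Atf3 at 4.62, whereas Egr1 (2.20) and Fosb (0.63) were the lowest. In HFD the order began with Junb at 8.18, Klf6 at 8.09 and Ier3 at 8.04, while Ier2 came next with 6.68. The gaps among the first 3 were smaller than the SD of any of them among HFD mice (0.64 to 1.12). In ob/ob Klf6 led with 8.01, followed by Ier3 and Junb, both at 7.42. Only 3.26% of all genes had a lower mean rlog value than Fosb (2.53) and 18.3% a lower one than Egr1 (4.66), and such low values are shrunk the most.

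Most of the genes share a compact structure. In the Gencode M21 annotation of GRCm38, the median gene span was 4235 bases over the 9 genes and 24446 bases over 14333 genes with a protein-coding transcript, and 9 of 9 had at most 4 exons, compared with 22.3% of all. Jun, Junb and Ier2 had 1 exon in the longest protein-coding transcript. Ier3 (chromosome 17, 35821684 to 35822923) was the shortest with a span of 1240 bases. A span under 5000 bases was found for 5 of 9 genes and 10.7% of all. Atf3 was the exception with 47744 bases, more than the median of all genes. Fos lies on chromosome 12 (85473890 to 85477273), Fosb on chromosome 7 (19302696 to 19310051), Jun on chromosome 4 (95049034 to 95052222), Junb on chromosome 8 (84974484 to 84978718), as does Ier2 (84661331 to 84662852), Atf3 on chromosome 1 (191170296 to 191218039) and Klf6 on chromosome 13 (5861482 to 5870394).

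The pentamer ATTTA, the core of the AU-rich elements known to mark RNAs for rapid decay, was found in the 3′ untranslated region of 8 of the 9 genes, Ier2 being the exception, and in 69.6% of all genes. Per kilobase it occurred 2.42 times in the 9 genes and 1.83 times in all genes. The densest 30-base windows of the 3 genes with 2 copies in such a window are shown in the sense direction, with the pentamers in capitals.
Fos 3′ UTR: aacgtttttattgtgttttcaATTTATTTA
Jun 3′ UTR: gtgatcATTTAtaatcataggaaagATTTA
Ier3 3′ UTR: ctccgtgtctaattaatATTTAtgtATTTA

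Upstream sequences from RefSeq on GRCm38.p6 were given for 7 of the 9 genes used here. Some of them are shown because several of these genes varied together across mice. Both strands of the 250 bases before the start site were searched for TGACG (the core of the cyclic AMP response element), TGACNTCA (which covers that element in full and the related site of the Jun gene), the AP-1 motif TGACTCA, the TATA sequence TATAAA, the kB motif and the CArG box bound by serum response factor, motifs that were picked after the sequences had been read. The first overlaps the second where N is G. TGACG was present upstream of Fos, Fosb, Junb and Atf3, 4 of 7 genes, and of 25.4% of 11685 genes, and TGACNTCA upstream of Jun and Klf6, 2 of 7 and 6.03% of all. TATAAA was found only for Fos (7.4% of all). TGACTCA, the kB motif and the CArG box, which occur in 3.35%, 0.377% and 1.13% of genes, had no match in these 7 windows. Egr1 and Ier2 were not searched. Sites more than 250 bases before the start site, and other forms of these motifs, would be missed. A match describes the letters and does not show that a factor bound there. The stretches below run 5′ to 3′ on the strand of the gene from base -150 towards the start site, with annotated exon bases left out and matches in capitals. The stretches of Atf3, whose match fell in bases annotated as exon, and of Ier3, which had no match, are not shown.
Fos (chr12:85473740-85473889, plus strand): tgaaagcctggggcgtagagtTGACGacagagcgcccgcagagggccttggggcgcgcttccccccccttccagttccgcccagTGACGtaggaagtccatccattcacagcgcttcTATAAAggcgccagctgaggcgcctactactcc
Fosb (chr7:19310052-19310195, minus strand): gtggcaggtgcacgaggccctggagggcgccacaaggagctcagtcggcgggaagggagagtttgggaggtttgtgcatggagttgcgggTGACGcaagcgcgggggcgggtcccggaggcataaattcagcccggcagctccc
Junb (chr8:84978749-84978898, minus strand): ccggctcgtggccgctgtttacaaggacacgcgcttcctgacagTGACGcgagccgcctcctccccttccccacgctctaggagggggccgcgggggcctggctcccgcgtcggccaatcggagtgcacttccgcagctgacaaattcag
Jun (chr4:95052223-95052372, minus strand): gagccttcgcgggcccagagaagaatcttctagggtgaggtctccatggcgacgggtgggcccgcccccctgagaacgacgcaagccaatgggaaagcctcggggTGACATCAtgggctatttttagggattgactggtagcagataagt
Klf6 (chr13:5861339-5861481, plus strand): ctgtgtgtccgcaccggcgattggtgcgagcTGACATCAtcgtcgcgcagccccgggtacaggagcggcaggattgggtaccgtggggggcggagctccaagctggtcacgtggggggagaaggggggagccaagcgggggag

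Across the 8 mice, most of these genes were highest in HFD replicates 2 and 3. Either of these mice held the highest value of all 9 genes, replicate 2 for Jun, Junb, Ier2, Ier3 and Klf6 and replicate 3 for Fos, Fosb, Egr1 and Atf3. For 8 of 9 genes, all but Ier2, both mice were above every LFD mouse, which held for 30% of all genes. HFD replicate 1 was above every LFD mouse for 3 genes (Fos, Junb and Ier3), below every LFD mouse for 3 (Fosb, Atf3 and Ier2) and between them for 3, beside 26.4%, 27.8% and 45.7% of all genes. The mean of the ob/ob mice lay above that of LFD and below that of HFD for 7 of 9 genes, the exceptions being Fosb and Ier2. The same order held for 17.9% of all genes, and the reverse order is not in that share.

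**Figure D1:**
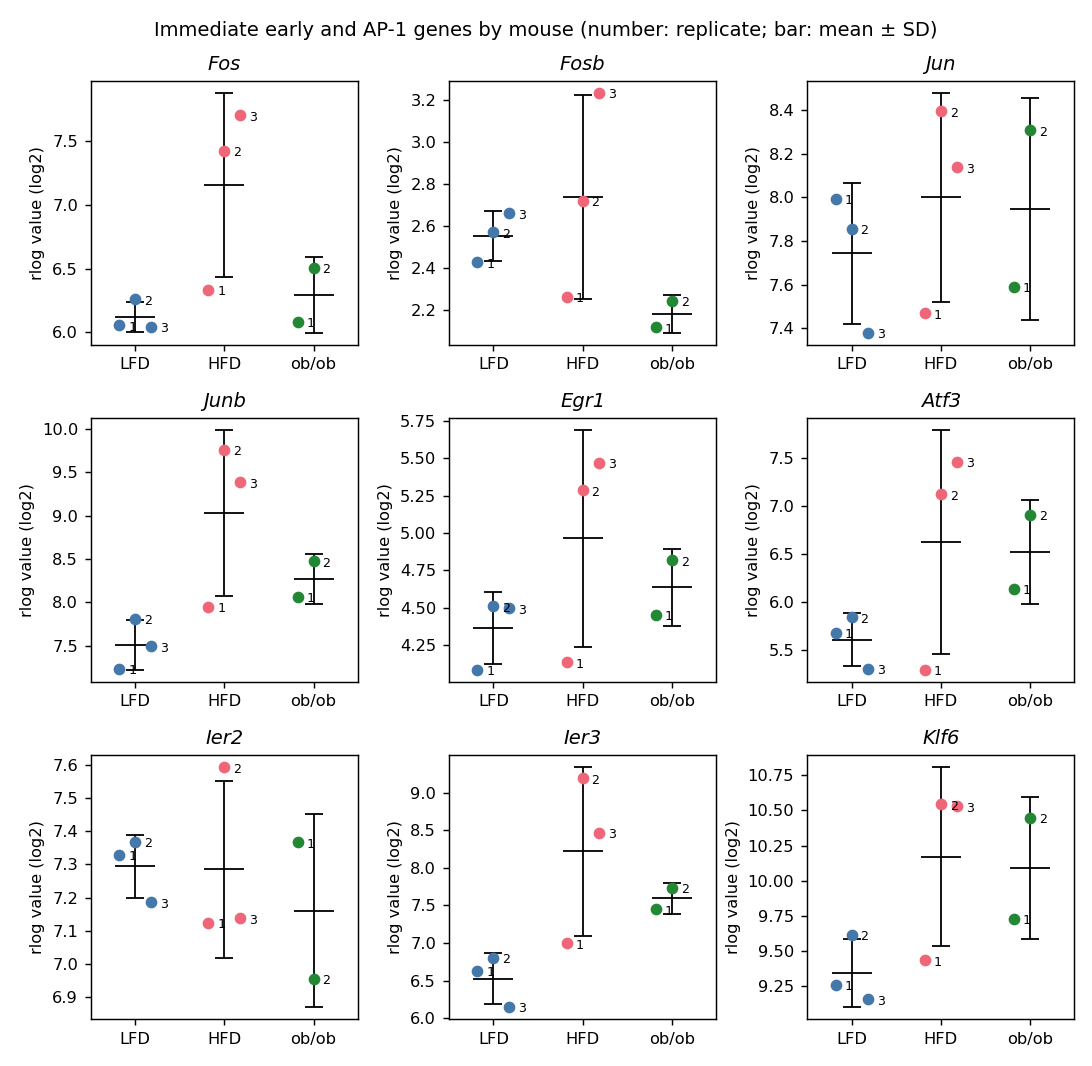
Deposited rlog values (log2) of the 9 genes in each mouse, by group; points are mice with their replicate number, and bars are the group mean ± SD (n = 3, 3 and 2). HFD replicates 2 and 3 lie above all LFD mice in every panel except Ier2, whereas HFD replicate 1 lies near them. Each panel has its own scale.

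Fos, the founding member of the Fos family, had rlog values of 6.06, 6.26 and 6.05 in LFD, 6.34, 7.42 and 7.70 in HFD and 6.09 and 6.50 in ob/ob. The HFD mice did not overlap with the LFD mice, but replicate 1 exceeded the highest LFD mouse only narrowly, and ob/ob replicate 1 lay within the LFD range. The log2 difference was 1.03 between HFD and LFD (standard error 0.35, adjusted p = 0.202 with limma) and 0.17 between ob/ob and LFD (standard error 0.39, adjusted p = 0.821). Fosb, a close relative of Fos, was at 2.43, 2.57 and 2.66 in LFD, 2.26, 2.72 and 3.23 in HFD and 2.12 and 2.25 in ob/ob. Both ob/ob mice lay below all other mice, narrowly below HFD replicate 1, and the HFD mice surrounded the LFD mice. The differences of Fosb were 0.19 for HFD against LFD and -0.37 for ob/ob against LFD, with 95% intervals from -0.48 to 0.85 and from -1.11 to 0.37.

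Jun, the partner of Fos in the classical AP-1 dimer, was at 7.99, 7.86 and 7.38 in LFD, 7.47, 8.39 and 8.14 in HFD and 7.59 and 8.31 in ob/ob. The 3 groups overlapped, and the difference between HFD and LFD was 0.26 (95% interval -0.44 to 0.95). Junb, which also pairs with Fos proteins and can oppose Jun at some genes, was at 7.23, 7.81 and 7.49 in LFD, 7.95, 9.76 and 9.39 in HFD and 8.07 and 8.48 in ob/ob. Each of the 5 obese mice exceeded the LFD mice, with ob/ob between the lowest and the other HFD mice. Its log2 difference was 1.52 for HFD against LFD (standard error 0.43, adjusted p = 0.18 with limma), a size exceeded by 2.2% of all genes, and 0.76 for ob/ob against LFD (standard error 0.48, adjusted p = 0.384). Between the mean of HFD and ob/ob and LFD it was 1.14 (standard error 0.38, adjusted p = 0.137).

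Atf3, a stress-induced bZIP factor that can dimerize with Jun proteins, was at 5.68, 5.84 and 5.31 in LFD, 5.29, 7.13 and 7.46 in HFD and 6.14 and 6.91 in ob/ob. HFD replicate 1 had the lowest value of all mice, whereas the other 4 obese mice were above all LFD mice. The difference was 1.02 for HFD against LFD (standard error 0.53, adjusted p = 0.311 with limma) and 0.92 for ob/ob against LFD (standard error 0.60, adjusted p = 0.4). The first ran from 0.60 without HFD replicate 3 to 1.69 without HFD replicate 1, and the second from 0.53 without ob/ob replicate 2 to 1.30 without ob/ob replicate 1. The SD among HFD mice was 1.17, the largest of the 9 genes in this group, against 0.27 among LFD mice.

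Egr1, a zinc finger factor induced by ERK signaling through serum response factor, was at 4.08, 4.51 and 4.50 in LFD, 4.13, 5.29 and 5.47 in HFD and 4.45 and 4.82 in ob/ob. Its groups overlapped, with a difference of 0.60 for HFD against LFD (95% interval -0.27 to 1.47) and 0.27 for ob/ob against LFD. The first went to 0.35 without HFD replicate 3 and the second to 0.091 without ob/ob replicate 2. Klf6 was at 9.25, 9.61 and 9.15 in LFD, 9.43, 10.55 and 10.53 in HFD and 9.73 and 10.45 in ob/ob. Both ob/ob mice and HFD replicates 2 and 3 were above all LFD mice, and HFD replicate 1 was within their range. The log2 difference of Klf6 was 0.83 (standard error 0.33, adjusted p = 0.228 with limma) for HFD and 0.75 (standard error 0.37, adjusted p = 0.297) for ob/ob against LFD. The latter was 0.39 without ob/ob replicate 2 and 1.11 without ob/ob replicate 1.

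Ier3, an early response gene linked to cell survival and known as a target of NFkB, was at 6.63, 6.81 and 6.15 in LFD, 7.00, 9.19 and 8.47 in HFD and 7.45 and 7.74 in ob/ob. None of the obese mice overlapped with LFD. It had the largest difference of the 9 genes, 1.69 for HFD against LFD (standard error 0.49, adjusted p = 0.181 with limma), which 1.33% of all genes exceeded, and 1.06 for ob/ob against LFD (standard error 0.55, adjusted p = 0.314). Ier2, a small single-exon early response gene, stood apart from the rest, with 7.33, 7.37 and 7.19 in LFD, 7.12, 7.59 and 7.14 in HFD and 7.37 and 6.96 in ob/ob. Its groups overlapped in every comparison, and the difference of -0.01 for HFD against LFD had a 95% interval from -0.50 to 0.48, so that changes up to about that size were not detectable with these mice.

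With limma and all 8 mice, the adjusted p-value was under 0.05 for 0 of the 9 genes and for 0% of all 15047 genes in either direction, in each of the 4 comparisons. At an unadjusted p-value under 0.05, 4 of 9 genes were higher in HFD than in LFD, namely Fos, Junb, Ier3 and Klf6, beside 11.5% of all genes, and 0 were lower, beside 8.35% of all. Between ob/ob and LFD this held for 0 of 9 genes in either direction, beside 11.6% higher and 7.18% lower, and between ob/ob and HFD for 0 of 9, beside 2.28% and 1.63%. Between the mean of both obese groups and LFD, 3 of 9 were higher, beside 14.5% of all genes, and 0 lower, beside 10.9%. Groups that did not overlap were found for 3 genes higher in HFD than in LFD, beside 12.9% of all genes. For ob/ob against LFD they were found for 4 genes higher (Junb, Atf3, Ier3 and Klf6), beside 24.1%, and for 1 lower (Fosb), beside 21.8%. Both obese groups lay above LFD for 2 genes, Junb and Ier3, beside 9.4% of all genes, and below LFD for 0, beside 9.05%. The median difference of the 9 genes was 0.83 for HFD and 0.27 for ob/ob against LFD, where the median over all genes was 0.03 and 0.04. Positive differences were found for 8 of 9 genes in HFD, 7 of 9 in ob/ob and 7 of 9 for both obese groups together, beside 52.4%, 53.1% and 53.5% of all genes. As the comparisons with LFD share the same 3 mice, these values are not independent of each other. The fit also took 1 spread from all 3 groups, and the HFD mice varied most. With only LFD and ob/ob mice in limma, 4 of 9 genes were higher in ob/ob at an unadjusted p-value under 0.05. This stood beside 2227 of 15047 genes, and 0 of 9 had an adjusted p-value under 0.05.

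The split of all genes depended on how the mice were scaled. At an unadjusted p-value under 0.05, HFD against LFD had 1728 higher and 1257 lower genes, but 2011 and 63 with each mouse scaled to its genes outside the acinar list. The same scaling turned 1751 and 1080 genes into 2437 and 32 for ob/ob against LFD, 343 and 245 into 71 and 8 for ob/ob against HFD, and 2186 and 1639 into 3830 and 84 for both obese groups against LFD. With each mouse centred on its median, the latter were 1823 and 2109.

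**Figure D2:**
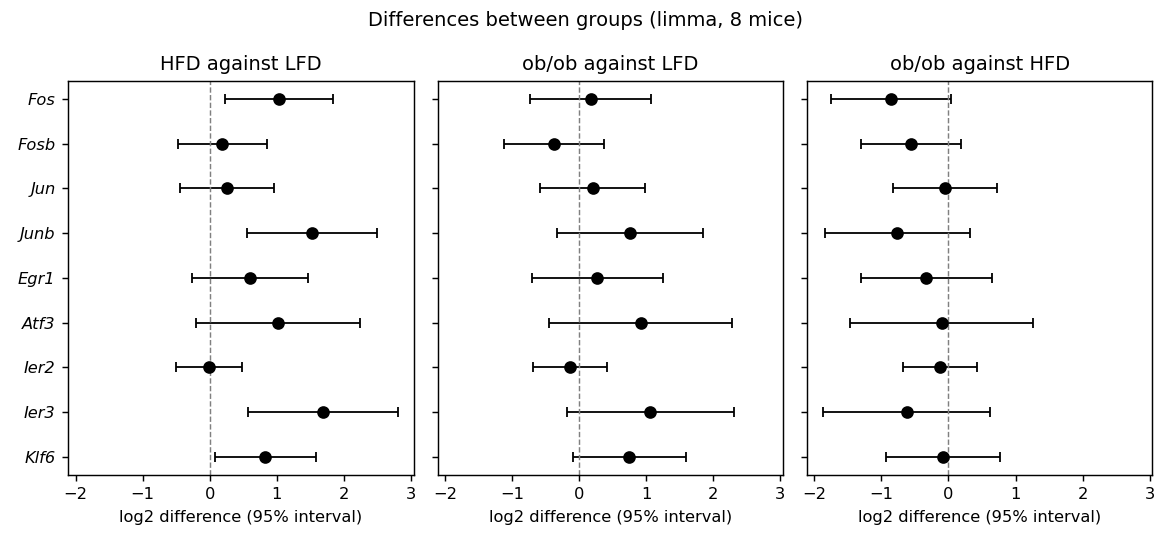
Log2 differences of the 9 genes with 95% intervals from limma over all 8 mice, for HFD against LFD, ob/ob against LFD and ob/ob against HFD. The interval excludes 0 for Fos, Junb, Ier3 and Klf6 in the first panel and for no gene in the other panels, before any adjustment for the number of genes.

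The test of ob/ob against HFD gave a negative difference for 9 of 9 genes, where 51.7% of all genes had a positive one, with a median of -0.33 against 0.01 over all genes. Fos was lower in ob/ob by a difference of -0.86 (standard error 0.39, unadjusted p = 0.0591 with limma and adjusted p = 1), Junb had -0.76 and Ier3 -0.62. Without HFD replicate 2 the latter 2 were -0.40 and -0.14, and without HFD replicate 1 they were -1.30 and -1.24. For Jun, Klf6, Atf3 and Ier2 the difference was between -0.12 and -0.05, and its sign changed when single mice were left out. Groups that did not overlap were found for 1 gene lower in ob/ob, Fosb, beside 5.42% of all genes, and for 0 higher, beside 7.92%.

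HFD replicate 1 had the strongest influence on these results. In acinar share this mouse was the HFD mouse nearest to LFD in these same data. The values without it therefore describe its influence and are no separate support for a difference. Without it, 6 of 9 genes were higher in HFD than LFD with adjusted p under 0.05 and 0 lower, beside 10.8% of all genes higher and 7.84% lower. The log2 differences then were 1.44 for Fos (adjusted p = 0.0158 with limma), 2.06 for Junb (0.0112), 2.30 for Ier3 (0.0126), 1.69 for Atf3 (0.0171), 1.20 for Klf6 (0.0201) and 1.01 for Egr1 (0.0478), from 2 HFD and 3 LFD mice in a model with both ob/ob mice. Jun (0.52, adjusted p = 0.215), Fosb (0.42, adjusted p = 0.326) and Ier2 (0.07, adjusted p = 0.858) did not pass. Without HFD replicate 2 or HFD replicate 3, 0 genes had an adjusted p-value under 0.05 and 2, Junb and Ier3, had an unadjusted one under 0.05. Without HFD replicate 1, 5 of 9 genes also passed between the mean of both obese groups and LFD, namely Fos, Junb, Atf3, Ier3 and Klf6, beside 12.8% of all genes higher and 9.35% lower. For ob/ob against LFD it was 0 of 9, beside 0.512% higher and 0.0798% lower.

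**Figure D3:**
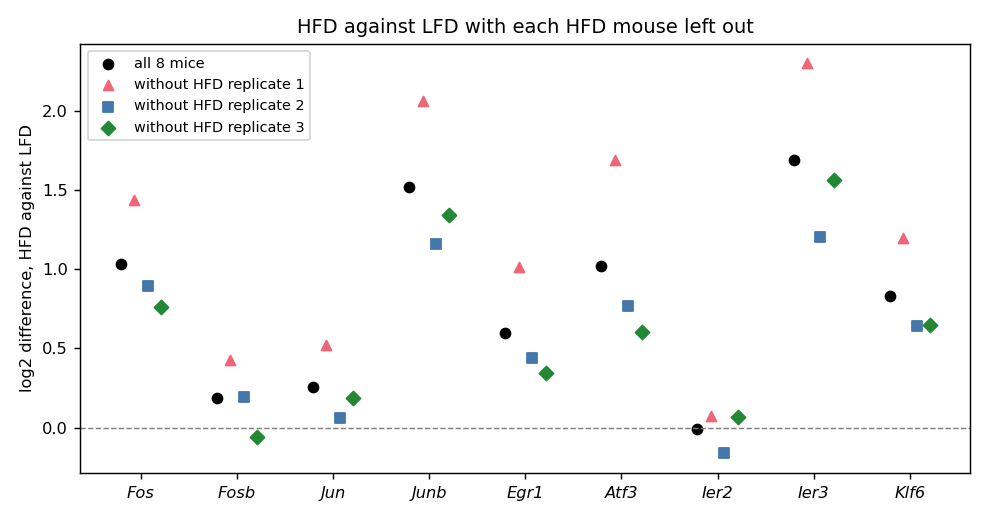
Log2 difference of each gene between HFD and LFD with all 8 mice and with each HFD mouse left out. Leaving out HFD replicate 1 raised the difference of all 9 genes, to 2.30 for Ier3, and the differences of Fosb and Ier2 took both signs.

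The spread of the 9 genes differed by group. The median SD over the 9 genes was 0.72 in HFD, beside 0.348 over all genes, and 8 of 9 genes had a larger SD than that median. In LFD the 2 medians were 0.242 and 0.226, and in ob/ob 0.29 and 0.283. Across the 8 mice the 9 genes were related to each other to very different degrees, given here as Pearson r without a test because the mice differ in group and tissue content. Over 36 pairs the median r was 0.752. Junb and Ier3 varied most closely together (r = 0.969), as did Atf3 and Klf6 (r = 0.967), whereas the pairs with Ier2 lay between -0.01 and 0.288. Pairs with Fosb had a median r of 0.446. The pairs among the other 7 genes lay between 0.661 and 0.969.

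Differences between 2 genes of the same mouse do not depend on how the mice were scaled to each other. Between Junb and Jun the rlog values differed by -0.76, -0.05 and 0.11 in LFD, 0.48, 1.37 and 1.25 in HFD and 0.48 and 0.17 in ob/ob, and none of the obese mice overlapped with LFD. Between Ier3 and Ier2 they differed by -0.70, -0.56 and -1.03 in LFD, -0.13, 1.60 and 1.33 in HFD and 0.08 and 0.78 in ob/ob. Again the obese mice, HFD replicate 1 included, lay above the LFD mice. Fos exceeded Fosb by 3.63, 3.69 and 3.38 in LFD, 4.07, 4.70 and 4.46 in HFD and 3.97 and 4.26 in ob/ob, where the shrinkage of the low Fosb values enters. These 3 pairs were chosen after their values were seen and were not tested.

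**Figure D4:**
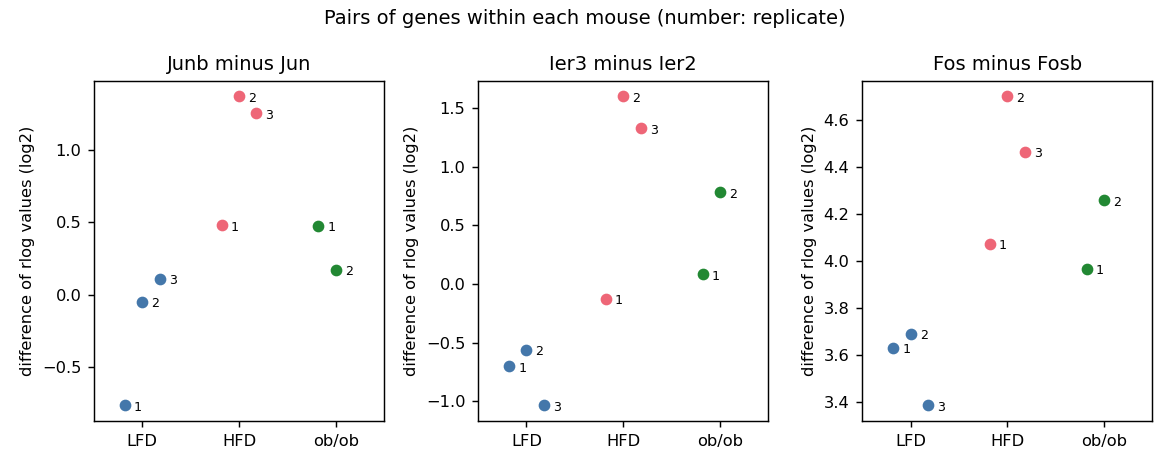
Difference of the rlog values (log2) of Junb and Jun, Ier3 and Ier2, and Fos and Fosb within each mouse, by group, with the replicate number beside each point. In each panel the 5 obese mice lie above the 3 LFD mice, with HFD replicate 2 the highest.

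Markers of several cell types moved with these genes, and in bulk tissue more cells of a type and more RNA per cell cannot be told apart. All 26 acinar genes had lower mean values in both obese groups, with a median difference of -2.01 for HFD and -2.11 for ob/ob against LFD. Of the 12 monocyte and macrophage markers, 12 were positive in both comparisons, with medians of 1.02 and 1.75. Their share of the summed linear values was 0.0167% to 0.033% in LFD, 0.0331% to 0.222% in HFD and 0.0825% to 0.513% in ob/ob. Of 12 neutrophil markers 8 were measured, Ly6g, Ngp, Camp and Stfa2l1 not being among them, with shares of 0.00127% to 0.0026% in LFD, 0.00281% to 0.0359% in HFD and 0.00726% to 0.00947% in ob/ob. The 10 fibroblast markers had 0.0182% to 0.032% in LFD, 0.033% to 0.459% in HFD and 0.0772% to 0.549% in ob/ob. The 10 duct markers had 0.0269% to 0.0375%, 0.0345% to 0.398% and 0.063% to 0.239% in these groups. Median log2 differences against LFD for HFD and ob/ob were 0.929 and 1.216 over fibroblast markers and 1.57 and 1.24 over neutrophil markers. Adipocyte markers had shares of 0.00236% to 0.00444% in LFD and 0.00325% to 0.0177% in HFD, with a median difference of -0.02. A larger share therefore does not give the size of a log2 difference. Of the 10 duct markers, 7 had a positive difference between HFD and LFD, with a median of 0.89. Between ob/ob and LFD only 3 of 10 were positive, with a median of -0.08, although their summed share was larger. Between HFD and LFD the medians of the other marker lists were -0.07 for T and B lymphocytes, 0.48 for endothelial cells, -0.40 for islet cells, -0.02 for adipocytes and 0.49 for red blood cells. The part of these cells in the values of the 9 genes was not tested beyond the 2 alternatives below.

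The mean rlog value of the 9 genes was highest in HFD replicate 2 (7.56), where acinar genes held 40.6% of the values, and nearly the same in HFD replicate 3 (7.50), where they held 21.3%. In ob/ob replicate 2, with 23.9%, it was 6.93. Macrophage markers were highest in ob/ob replicate 2, with a mean rlog value of 10.97 beside 10.47 and 9.94 in HFD replicates 2 and 3. Neutrophil markers were highest in HFD replicates 3 and 2, at 7.92 and 7.90, and lower in ob/ob replicate 2, at 6.42. Duct markers were highest in HFD replicates 2 and 3 as well, at 10.37 and 10.32. In ob/ob replicate 2 they were at 9.05, the lowest of all mice, whereas the mean of the 9 genes in that mouse was above every LFD mouse. Fibroblast markers were highest in ob/ob replicate 2 (11.08).

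With the mean acinar value of each mouse as a covariate, the difference between HFD and LFD was 0.97 for Junb (adjusted p = 0.406 with limma) and 1.13 for Ier3 (adjusted p = 0.433), and their unadjusted p-values stayed under 0.05. That of Fos went to 0.50, of Klf6 to 0.31 and of Atf3 to 0.14. For ob/ob against LFD the same fit gave 0.16 for Junb, 0.45 for Ier3, 0.18 for Klf6, -0.045 for Atf3 and -0.40 for Fos. For both obese groups it gave 0.57 for Junb and 0.79 for Ier3, with unadjusted p-values of 0.138 and 0.101 in limma, and 0.051 for Fos. Between ob/ob and HFD it gave -0.91 for Fos and -0.81 for Junb (adjusted p = 0.447 and 0.601). With each mouse scaled to its genes outside the acinar list, the differences were 2.27 for Junb, 2.44 for Ier3, 1.78 for Fos and 0.74 for Ier2, while the median of all genes moved to 0.78.

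**Figure D5:**
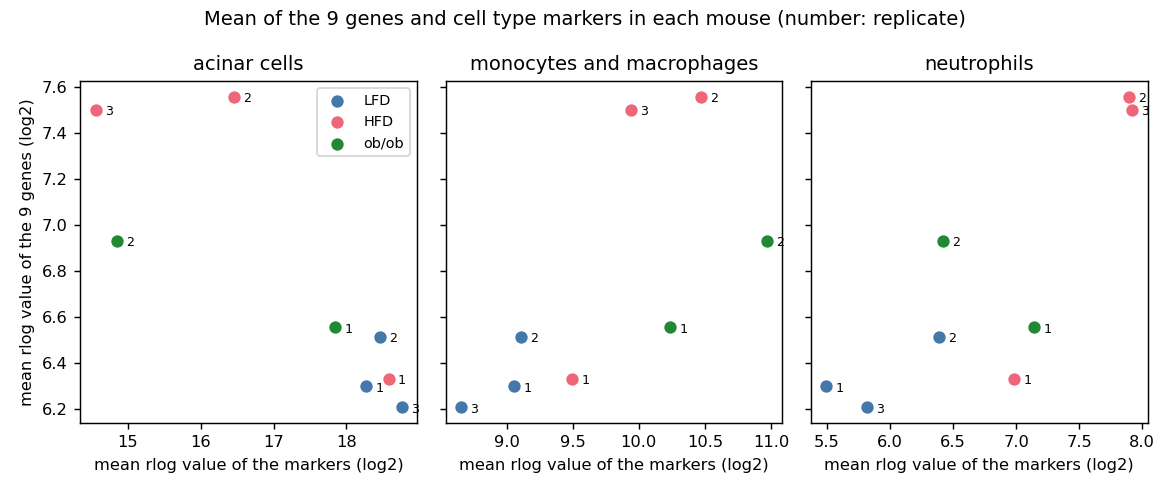
Mean rlog value of the 9 genes in each mouse against the mean rlog value of the acinar, monocyte and macrophage, and neutrophil markers of the same mouse (log2 on both axes), with groups by color and replicate numbers beside the points. HFD replicates 2 and 3 have the highest means of the 9 genes at acinar values of 16.46 and 14.55, and ob/ob replicate 2 has a lower one at 14.84.

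The other partners of AP-1 were described from a list of 15 related bZIP genes. Against LFD and at an unadjusted p-value under 0.05, HFD had 4 of them higher and 2 lower, beside 11.5% and 8.35% of all genes, and ob/ob 4 higher and 1 lower, beside 11.6% and 7.18%. In this and the next 4 lists, 0 adjusted p-values from limma were under 0.05 with all 8 mice. Fosl2, a Fos family member, was at 7.86, 7.74 and 7.10 in LFD, 7.88, 8.72 and 9.16 in HFD and 8.12 and 9.02 in ob/ob. Each obese mouse exceeded the LFD mice, though HFD replicate 1 by very little, and the difference was 1.02 for HFD and 1.01 for ob/ob against LFD (adjusted p = 0.215 and 0.258 with limma). Between ob/ob and HFD Fosl2 differed by -0.01 (standard error 0.42), where Fos had -0.86 (standard error 0.39). Between both obese groups and LFD, Atf5, another bZIP factor, differed by -0.98 (adjusted p = 0.144 with limma).

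Among 38 other immediate early genes, 35 were measured. Of these, HFD had 7 higher and 1 lower than LFD at an unadjusted p-value under 0.05, and ob/ob had 4 higher and 1 lower, where 11.5% and 11.6% of all genes were higher. Their median difference was 0.43 for HFD and 0.25 for ob/ob, and 27 and 25 of 35 were positive, compared with 52.4% and 53.1% of all genes. Cyr61, a matricellular protein gene induced by serum, was at 6.30, 6.15 and 6.12 in LFD, 5.98, 7.67 and 7.72 in HFD and 6.93 and 7.74 in ob/ob, with HFD replicate 1 below the LFD mice and the other obese mice above them. Gadd45a, a growth arrest gene induced by DNA damage, differed by 1.27 for HFD and 0.80 for ob/ob. Plk2, a polo-like kinase gene, differed by -0.79 and -0.78 (adjusted p = 0.28 and 0.326 with limma), with 10.96, 10.91 and 10.91 in LFD and 10.96, 10.09 and 9.36 in HFD.

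Upstream of these genes, 24 of 25 kinases and transcription factors were measured, and their median differences were 0.21 for HFD and 0.19 for ob/ob. Elk3, an ETS family partner of serum response factor, was at 7.34, 7.45 and 6.80 in LFD, 7.82, 8.61 and 8.70 in HFD and 8.03 and 8.97 in ob/ob, so the obese mice did not overlap with LFD. Its difference was 1.18 and 1.31 (standard errors 0.33 and 0.37, adjusted p = 0.18 and 0.2 with limma). Map2k2, which encodes the ERK kinase MEK2, differed by -0.41 and -0.63, with all obese mice below all LFD mice, and Mapk11, a p38 kinase gene, by 0.90 and 0.69. At an unadjusted p-value under 0.05, 2 genes of this list were higher and 2 lower in HFD, and 1 was higher and 1 lower in ob/ob, so of 24 genes no larger share was higher than of all genes (11.5% and 11.6%).

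The list of 20 AP-1 target genes had the largest shift of these lists, although many of its members also respond to other factors and are expressed by macrophages, fibroblasts or duct cells. Its median difference was 1.28 for HFD and 1.14 for ob/ob against LFD, and 13 and 8 genes were higher at an unadjusted p-value under 0.05, with 2 lower in each, where 11.5% and 11.6% of all genes were higher. Timp1, an inhibitor of matrix metalloproteinases, was at 6.58, 7.33 and 6.71 in LFD, 7.91, 9.51 and 9.17 in HFD and 9.15 and 9.79 in ob/ob (differences 1.99 and 2.59, adjusted p = 0.175 and 0.137 with limma). The metallothionein gene Mt1 went the other way, with 11.67, 12.36 and 12.17 in LFD, 10.50, 9.83 and 9.20 in HFD and 10.63 and 9.28 in ob/ob (differences -2.22 and -2.11, adjusted p = 0.174 and 0.157 with limma). The obese mice were all below the LFD mice for Mt1 and above them for Timp1.

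Heat shock genes, which respond to stress of the tissue, were listed as a second kind of rapid response. Of 12 genes, 3 were higher in HFD at an unadjusted p-value under 0.05 and 0 in ob/ob, where 11.5% and 11.6% of all genes were, with median differences of 0.43 and -0.14. Hspa1a, an inducible Hsp70 gene, ran from 4.11 to 6.24 in LFD and was at 4.92, 6.40 and 7.27 in HFD and 4.16 and 5.02 in ob/ob, so that its groups overlapped. Hspa4l differed by 0.95 and 0.80 and Bag3, a cochaperone gene, by -0.07 and -0.43. Adjusted p-values of this list were at least 0.24 in HFD and 0.34 in ob/ob.

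The genes whose pattern over the 8 mice was most like the mean of the standardized values of the 9 genes were Tinagl1 (Pearson r = 0.984), Isg15 (0.984), H2-T23 (0.983), Nos2 (0.978) and Anxa4 (0.977), taken as the highest of all genes outside the list, with no test. Isg15, a ubiquitin-like gene induced by interferon, was at 4.56, 4.77 and 4.26 in LFD, 4.58, 6.03 and 5.83 in HFD and 4.94 and 5.18 in ob/ob. Nos2, the inducible nitric oxide synthase, was at 2.93, 3.33 and 2.99 in LFD, 2.54, 5.02 and 4.65 in HFD and 2.94 and 3.43 in ob/ob. Both share with the mean of the 9 genes the high values of HFD replicates 2 and 3 and a smaller one in ob/ob replicate 2, which follows from how they were picked. The genes most like Fos alone were Rsad2 (r = 0.983), Gpr55 (0.983) and Gsr (0.979).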

How the data were processed

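Pancreas RNA of 8 male mice was measured and grouped by the sample labels as 3 LFD, 3 HFD and 2 ob/ob mice. The authors quantified Gencode M18 transcripts (GRCm38.p6) with Salmon 0.11.3, summarized them per gene with tximport and deposited log2 values from the rlog function of DESeq2 1.22.2, and the filter on genes is not given in the sources used here. Salmon divides reads of similar transcripts by probability. Depth is unknown.

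The 10 genes and all lists were chosen with earlier results of these data known. All 15047 genes were fitted with limma 3.58.1 (R 4.3.3, a mean per group, empirical Bayes with a trend), and p-values were adjusted over all genes with the Benjamini-Hochberg method, since rlog values are not counts. From each further list the 2 largest positive and the largest negative difference between obese and LFD mice were named, except for items that are not reported here. In a test on simulated data for HFD against LFD over 15047 genes, 24% of genes changed by 4 residual SDs and 92% of those changed by 8 were called, with 5 false calls. Transcripts, coordinates and exons came from Gencode M21 on GRCm38, and promoters from RefSeq, with the first start site listed for each gene. For Atf3 the stretch before this start site (chromosome 1, 191183341 to 191183483) lay inside the gene span given above.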

Additional observations from a re-analysis of the deposited data

How the results depend on the processing

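With 2 or 3 mice per group and unknown depth, only large differences could pass the adjustment. The adjusted p-value was under 0.05 for 0 of the 9 genes under every alternative that kept all 8 mice, while the number of all genes went from 0 to 1 for HFD against LFD and 38 for ob/ob against LFD when only the groups compared entered the fit (not a separate fit for both obese groups), and to 1 for ob/ob against either group and for both obese groups against LFD with the acinar mean as a covariate. Counts at an unadjusted p-value under 0.05 among the 9 genes moved with the covariate from 4 to 2 for HFD against LFD and from 3 to 0 for both obese groups, and for ob/ob against LFD from 0 to 4 with only the groups compared and to 2 with scaling outside the acinar list. Fosb and Egr1 did not reach the mean rlog value of 5 required in 1 alternative.

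Replicate numbers did not pair the mice: correlations of same-numbered deviations ran from -0.281 (LFD and HFD 3) to 0.592 (HFD and ob/ob 1). With the replicate block, unadjusted counts were 4, 1 and 4 for HFD, ob/ob and both obese groups against LFD, no adjusted p-value of the 9 genes was under 0.05, and Atf3 differed by 0.029 between ob/ob and HFD.

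Leaving out 1 mouse gave 0 to 6 adjusted and 2 to 6 unadjusted calls among the 9 genes for HFD against LFD (0 to 2812 in all genes), 0 to 5 and 1 to 6 for both obese groups (0 to 3326), and 0 to 4 unadjusted calls for ob/ob against LFD (0 to 89). For ob/ob against HFD, 0 to 1 of all genes passed. The highest counts of adjusted calls against LFD came without HFD replicate 1, and without ob/ob replicate 1 there were 61 for ob/ob and 476 for both obese groups.

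Some signs changed, including those of Atf3 (0.92) and Fosb (-0.37) for ob/ob against LFD. Scaling outside the acinar list gave Ier2 0.74 for HFD, Fosb 0.54 and Ier2 0.77 for ob/ob, and Fosb 0.74 and Ier2 0.76 for both obese groups, each against LFD. Between ob/ob and HFD it gave Jun 0.11, Atf3 0.056, Ier2 0.036 and Klf6 0.079. The covariate gave Fosb -0.14, Jun -0.15 and Ier2 0.070 for HFD, Fos -0.40, Jun -0.24, Egr1 -0.27 and Atf3 -0.045 for ob/ob, and Jun -0.19, Egr1 -0.078 and Ier2 0.012 for both obese groups. Quantile normalization gave Fos -0.035 and Egr1 -0.0039 for ob/ob. Without 1 mouse, HFD against LFD ran from -0.061 to 0.42 for Fosb and -0.16 to 0.071 for Ier2, ob/ob against LFD from -0.036 to 0.38 for Fos, -0.15 to 0.56 for Jun and -0.34 to 0.072 for Ier2, ob/ob against HFD from -0.41 to 0.31 for Jun, -0.77 to 0.31 for Atf3, -0.33 to 0.082 for Ier2 and -0.45 to 0.28 for Klf6, and both obese groups from -0.22 to 0.026 for Fosb and -0.17 to 0.031 for Ier2. The cause was not tested.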
